A study of Mus musculus with 36 samples.

Results

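The mitochondrial respiratory chain is built from proteins of 2 genomes, and the nuclear-encoded subunits of its 4 electron-transferring complexes and of ATP synthase (complex V) were followed here through purified P-bodies, cytoplasm, polysomes and total RNA of mouse cells. Members were the gene symbols of the count tables that begin with Nduf followed by a, b, c, s or v and a digit, with Cox and a digit from 4 to 8, with Uqcr or Atp5, or that read Sdha, Sdhb, Sdhc or Sdhd, without symbols containing -ps. The rule uses names and no measured value. It found 89 symbols of 50216 in all tables together, with 86 of 25239 in the table of 20 P-body and cytoplasm libraries, 86 of 25229 in the polysome table and 84 of 48440 in the Ago2 knockout (KO) table. By symbol, 39 of the 86 belonged to complex I, 4 to complex II, 8 to complex III, 18 to complex IV and 17 to complex V. Atp5f1 of the Ago2 KO table and Atp5pb of the other tables are the same gene under an older and a newer name. Atp5s and Atp5sl match the rule by name but are not subunits of the ATP synthase, and Ndufb4c and Ndufa11b are annotated as processed pseudogenes, so reads of the parent genes could have been counted for them. Cox8b was at 0 in all 20 P-body and cytoplasm libraries.

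RNA was sequenced in 36 samples of 16 groups. P-bodies are cytoplasmic condensates of untranslated mRNA and RNA-binding proteins, and they were sorted as particles carrying GFP-LSM14A, a P-body protein expressed from a lentiviral vector, while the cytoplasm was a portion of the lysate fraction taken before sorting. Naive and primed embryonic stem (ES) cells came from the v6.5 line (C57BL/6 × 129S4Sv/Jae F1), the first grown with LIF and inhibitors of MEK and GSK3 and the second differentiated from them with activin A and bFGF. Mouse embryonic fibroblasts (MEFs) were sampled as a control and, for cells carrying doxycycline-inducible Oct4, Klf4, Sox2 and c-Myc in Col1a1 and a transactivator at Rosa26, 3 days (day 3) into reprogramming, either with a control or with an shRNA against Nudt21, a cleavage and polyadenylation factor. The Ago2 KO cells were derived from the same ES line by a CRISPR deletion. Each of these conditions had 2 P-body and 2 cytoplasm libraries. Polysome-bound and total RNA (3 libraries each) came from single-cell cloned naive GFP-LSM14A ES cells with a degradation tag on both copies of Ddx6, the RNA helicase that P-bodies need. The cells received either the degrader dTAG-13 for 6 h (DDX6 degron) or none (control), so the control cells carried the tag too.

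In the inner mitochondrial membrane, complexes I and II pass electrons from NADH and succinate to ubiquinone, complex III hands them to cytochrome c and complex IV to oxygen. The proton gradient built on the way drives ATP synthase. Mitochondrial DNA encodes a few core subunits of complexes I, III, IV and V, whereas all subunits of complex II and most subunits of the others are nuclear-encoded, translated in the cytosol and imported. The nuclear genes include both large catalytic subunits (Ndufs1, which holds iron-sulfur clusters of complex I, Sdha, the flavoprotein of complex II, and Atp5a1 and Atp5b, the α and β subunits of ATP synthase) and many small accessory proteins. Naive ES cells are known to respire more than primed ES cells, which rely more on glycolysis.

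Members were short. Among members tested in control ES cells, the median annotated transcript measured 763 bases and the median coding sequence 400.5 bases, against 2911 and 1377 bases over the 14451 protein-coding genes tested there, and this difference is given beside the results that moved with it. The c subunit that forms the rotating ring of ATP synthase shows how close members can be in sequence and how differently they can be expressed. It is encoded by 3 genes whose targeting peptides differ but whose mature proteins are alike: Atp5g1 (GRCm38, chr11:96068852-96075670, minus strand), Atp5g2 (chr15:102662864-102672352, minus strand) and Atp5g3 (chr2:73908447-73911326, minus strand). The last 228 coding bases of each, stop codon included, are shown for the reference genome because they code for the shared ring-forming part, and capitals mark the positions at which the 3 genes are not identical.
Atp5g1: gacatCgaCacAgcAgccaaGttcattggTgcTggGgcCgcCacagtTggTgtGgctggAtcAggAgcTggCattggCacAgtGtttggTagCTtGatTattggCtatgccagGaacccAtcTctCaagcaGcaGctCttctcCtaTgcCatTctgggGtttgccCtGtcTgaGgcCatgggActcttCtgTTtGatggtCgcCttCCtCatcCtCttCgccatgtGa
Atp5g2: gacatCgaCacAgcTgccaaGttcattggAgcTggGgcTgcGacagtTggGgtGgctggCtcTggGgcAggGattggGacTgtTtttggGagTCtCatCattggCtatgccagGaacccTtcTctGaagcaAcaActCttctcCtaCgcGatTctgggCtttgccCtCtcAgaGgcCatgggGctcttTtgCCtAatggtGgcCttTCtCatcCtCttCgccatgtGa
Atp5g3: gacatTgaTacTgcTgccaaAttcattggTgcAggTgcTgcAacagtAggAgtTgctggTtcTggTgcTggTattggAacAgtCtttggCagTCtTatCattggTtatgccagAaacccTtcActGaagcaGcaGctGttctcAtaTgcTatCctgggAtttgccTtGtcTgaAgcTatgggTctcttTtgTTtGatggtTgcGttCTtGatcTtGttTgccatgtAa
The 3 stretches shared 170 of 228 bases (74.6%), and 52 of the 58 differing positions were the last base of a codon. Pairwise identity was 85.1% for Atp5g1 and Atp5g2, 79.8% for Atp5g1 and Atp5g3 and 78.5% for Atp5g2 and Atp5g3, so reads from this stretch can be told apart.

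Promoters of nuclear respiratory genes are known to carry sites for NRF1 and for ETS-family factors such as GABP. Promoter windows of 300 bases, from 250 bases before to 50 bases after the annotated start, were held by RefSeq (GRCm38.p6) for 76 members and 32851 start sites in all. Exact matches were searched on both strands, and no motif is contained in another. The ETS motif CCGGAAGT was in 6.58% of member windows and 3.89% of all windows, the NRF1 motif (GCGC, then AT, then GCGC) in 6.58% and 0.971%, the YY1 motif AAGATGGC in 15.8% (12 windows) and 2.75%, and the TATA-box motif TATAAA in 11.8% and 13.6%. These matches describe letters in a window and not binding. Windows of 4 members on which results below turn are shown with their matches in capitals, written 5′ to 3′ on the gene's strand. Cox8a (chr19:7217567-7217866, minus strand) holds 2 ETS matches, Cox6a1 (chr5:115348909-115349208, minus strand) and Atp5k (chr5:108434350-108434649, minus strand) 1 NRF1 match each, and Ndufs4 (chr13:114388045-114388344, minus strand) 1 YY1 match.
Cox8a: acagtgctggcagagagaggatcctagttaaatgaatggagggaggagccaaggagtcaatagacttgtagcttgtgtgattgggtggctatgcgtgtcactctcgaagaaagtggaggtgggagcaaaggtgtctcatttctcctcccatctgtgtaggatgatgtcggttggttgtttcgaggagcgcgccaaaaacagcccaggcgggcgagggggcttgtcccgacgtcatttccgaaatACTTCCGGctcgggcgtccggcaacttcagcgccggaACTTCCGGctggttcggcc
Cox6a1: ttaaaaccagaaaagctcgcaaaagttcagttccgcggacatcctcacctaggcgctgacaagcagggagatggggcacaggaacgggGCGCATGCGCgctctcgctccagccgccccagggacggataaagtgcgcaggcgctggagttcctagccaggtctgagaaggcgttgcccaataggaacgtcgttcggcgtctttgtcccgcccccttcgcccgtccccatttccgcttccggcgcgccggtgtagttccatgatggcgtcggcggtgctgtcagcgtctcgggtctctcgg
Atp5k: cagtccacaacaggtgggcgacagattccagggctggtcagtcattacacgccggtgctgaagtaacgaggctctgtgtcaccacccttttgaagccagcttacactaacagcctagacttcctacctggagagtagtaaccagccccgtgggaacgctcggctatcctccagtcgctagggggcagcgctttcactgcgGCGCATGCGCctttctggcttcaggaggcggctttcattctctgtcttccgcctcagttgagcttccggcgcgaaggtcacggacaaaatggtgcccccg
Ndufs4: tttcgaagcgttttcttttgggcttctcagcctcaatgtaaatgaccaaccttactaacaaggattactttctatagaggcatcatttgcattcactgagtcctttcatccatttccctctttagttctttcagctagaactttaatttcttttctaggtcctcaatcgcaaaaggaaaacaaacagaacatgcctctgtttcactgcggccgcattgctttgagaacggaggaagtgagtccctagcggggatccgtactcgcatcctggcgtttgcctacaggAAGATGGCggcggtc

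Depth ranged from 6769731 to 31185874 counts per library in the P-body and cytoplasm table, from 13308782 to 29362195 in the polysome table and from 15624401 to 17486268 in the Ago2 KO table. Values below are CPM (reads of a gene scaled to the same library total) after TMM scaling within each table, and they count reads per gene and not per base. The labelled cell types carried the markers that follow, but Lef1, another primed marker, did not separate the P-bodies. It was at 16.1 and 20 CPM in naive and 17.6 and 17.2 CPM in primed P-bodies. In the cytoplasm it was at 0.314 and 0.614 CPM in naive and 13.1 and 17.1 CPM in primed cells. Zfp42, a naive marker, was at 445 to 507 CPM in naive and 40.4 to 71.1 CPM in primed libraries, Fgf5, a primed marker, at 20.4 to 25.8 CPM in primed and 0 to 0.318 CPM in naive libraries, and Col1a1, a fibroblast collagen, at 3850 to 14700 CPM in MEF libraries and at most 3.58 CPM in ES cell libraries. Nudt21 was at 4.87 to 5.94 CPM in knockdown libraries and 88.9 to 110 CPM in the day 3 controls. Some libraries stood apart. The 2 Ago2 KO cytoplasm libraries differed most within a group (chi-square per gene of 334, against 1.82 for the 2 naive P-body libraries, the closest pair), the ribosomal RNA gene Rn18s-rs5 took 59700 CPM in 1 and 256000 CPM in the other, and the 2 P-body libraries of the day 3 controls differed more (52) than those of the other conditions in their table.

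The question of the first comparisons was which of these mRNAs were enriched in P-bodies over the cytoplasm of the same cells, and whether that depended on cell state. Summed over members, naive cytoplasm held 21970 and 22940 CPM and naive P-bodies 16260 and 16140 CPM. The order was turned in MEFs, with 10840 and 11610 CPM in the cytoplasm and 24130 and 21340 CPM in P-bodies. Primed ES cells held 13350 and 13060 CPM in the cytoplasm and 11870 and 11660 CPM in P-bodies. In the day 3 control cells the cytoplasm held 14960 and 15240 CPM and P-bodies 17870 and 20420 CPM, and in the Nudt21 knockdown cells 13060 and 13290 CPM and 17590 and 16790 CPM. In each of these 5 conditions the ranges of the 2 fractions did not overlap, with P-bodies below the cytoplasm in both ES cell states and above it in the 3 fibroblast-derived conditions. In Ago2 KO ES cells the ranges overlapped, at 31680 and 14920 CPM in the cytoplasm and 46890 and 31120 CPM in P-bodies.

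**Figure D1:**
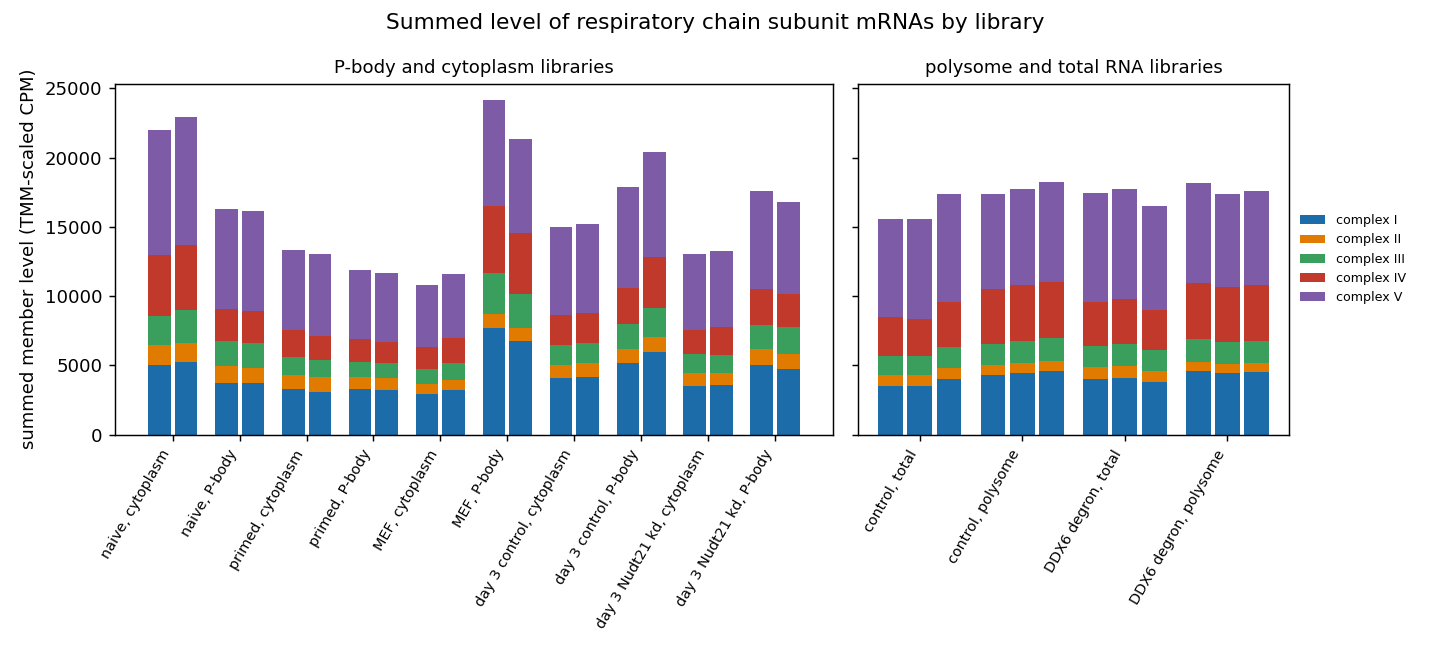
Summed level of the members in CPM (y axis) in each P-body, cytoplasm, polysome and total RNA library except those of the Ago2 KO (x axis), with the bar divided by complex from I to V. P-body bars are lower than cytoplasm bars in naive ES cells (16260 and 16140 against 21970 and 22940 CPM) and higher in MEFs (24130 and 21340 against 10840 and 11610 CPM), while polysome and total RNA bars lie between 15590 and 18260 CPM.

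In naive ES cells, respiratory chain mRNAs were depleted from P-bodies. Of 83 members tested, 44 were lower in P-bodies and 1 was higher (edgeR quasi-likelihood test, Benjamini-Hochberg adjusted p below 0.05 over all genes). Over all 15630 genes tested, 15.4% were lower and 22.6% higher. The median log2 fold change was -0.51 over the members and -0.06 over all genes. Complex IV was lower in 11 of 16 members (median -0.79), complex I in 21 of 38 (-0.51), complex V in 8 of 17 (-0.36), complex III in 3 of 8 (-0.37) and complex II in 1 of 4 (-0.30).

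Cytochrome c oxidase subunits stood at the lower end. Cox8a, a small membrane subunit, was at 234 and 226 CPM in naive P-bodies and 522 and 662 CPM in naive cytoplasm, a log2 fold change of -1.36 ± 0.14 (SE, n = 2 per fraction, adjusted p = 0.00164). Cox5a, a matrix-side subunit, was at 206 and 227 CPM in P-bodies and 501 and 563 CPM in the cytoplasm, a change of -1.30 ± 0.11 (adjusted p = 0.000994). For both genes every P-body library was less than every cytoplasm library. Cox6a1 (-1.24 ± 0.10, adjusted p = 0.00071), Cox7a1 (-1.06 ± 0.20, adjusted p = 0.0108) and Cox6b1 (-1.02 ± 0.15, adjusted p = 0.00496) followed. The 3 genes of the ATP synthase c subunit shared the direction, at -0.94 for Atp5g1, -0.86 for Atp5g2 and -0.61 for Atp5g3. Atp5pb, the b subunit of the peripheral stalk, was the single member called higher, at 377 and 381 CPM in P-bodies and 292 and 305 CPM in the cytoplasm (0.35 ± 0.09, adjusted p = 0.037), and this call was lost with DESeq2 (v1.42.0) and without either P-body library.

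The catalytic subunits Sdha and Ndufs1 were not called. Sdha was at 666 and 639 CPM in P-bodies and 840 and 717 CPM in the cytoplasm (-0.26 ± 0.11, adjusted p = 0.136), and Ndufs1 at 230 and 229 CPM and 200 and 206 CPM (0.18 ± 0.09, adjusted p = 0.183). The count of called members rested on single libraries, and the count over all genes moved widely with them too. In fits with 1 library left out, the member median ran from -0.54 to -0.35. Cox5a and Cox8a were called in each of these fits. With the trend of fold change on GC content and transcript length over all genes with an annotated transcript removed, the member median was -0.14.

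MEFs showed the opposite direction. Of 82 members tested, 76 were higher in P-bodies and 3 lower, with 26.6% of all genes higher and 28.7% lower, and the median log2 fold change was 1.32 over members and 0.03 over all genes. Complex I was higher in 36 of 38 members, complex III in 8 of 8, complex IV in 14 of 15, complex V in 15 of 17 and complex II in 3 of 4. Each member's P-body range lay outside its cytoplasm range.

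Small accessory subunits rose furthest. Atp5k, the e subunit of ATP synthase, was at 137 and 137 CPM in MEF P-bodies and 33.9 and 41.5 CPM in the cytoplasm (1.90 ± 0.12, adjusted p = 4.58e-06), and Ndufa2, an accessory subunit of complex I, at 466 and 411 CPM and 114 and 132 CPM (1.88 ± 0.11, adjusted p = 3.57e-06). Both genes were more than 3 times as high in P-bodies by these values. Cox4i1, the common form of a large membrane subunit of complex IV, rose by 1.74 and Uqcrh, the hinge protein of complex III, by 1.78. Cox8a rose by 1.47, Atp5g3 by 1.41 and Cox5a by 1.04, so that genes lower in naive P-bodies were higher in MEF P-bodies.

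The 3 members that fell in MEF P-bodies were Sdha, Ndufs1 and Ndufa4l2. Sdha was at 191 and 166 CPM in P-bodies and 336 and 317 CPM in the cytoplasm (-0.83 ± 0.09, adjusted p = 6.66e-05), while Sdhb, the iron-sulfur subunit of the same complex, was at 492 and 426 CPM and 157 and 182 CPM (1.48 ± 0.11, adjusted p = 7.26e-06). Complex II thus held members called in opposite directions in the same libraries. Ndufs1 was at 115 and 111 CPM in P-bodies and 138 and 143 CPM in the cytoplasm (-0.27 ± 0.09, adjusted p = 0.0276), a call that was lost without either cytoplasm library. Ndufa4l2, a hypoxia-induced relative of Ndufa4, was at 7.50 and 6.68 CPM in P-bodies and 16.3 and 13.8 CPM in the cytoplasm (-1.04 ± 0.17, adjusted p = 0.000662). The catalytic subunits Atp5a1 (-0.19, adjusted p = 0.0551) and Atp5b (0.13, adjusted p = 0.176) were not called.

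Other transcripts moved with the MEF fractions. The ribosomal RNA precursor Rn45s was at 27200 and 28100 CPM in MEF P-bodies and 5020 and 5690 CPM in the cytoplasm, the nuclear RNA Malat1 at 4950 and 6990 CPM and 960 and 1010 CPM, and the lung epithelial genes Sftpc and Scgb1a1 at 2.19 and 4.06 CPM in P-body replicate 1 and 46.3 and 47.6 CPM in replicate 2, against 0 CPM in both MEF cytoplasm libraries. Their part in the result was not tested, and with any 1 library left out the member median ran from 1.25 to 1.41. With the GC content and length trend removed, the MEF member median was 0.28.

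**Figure D2:**
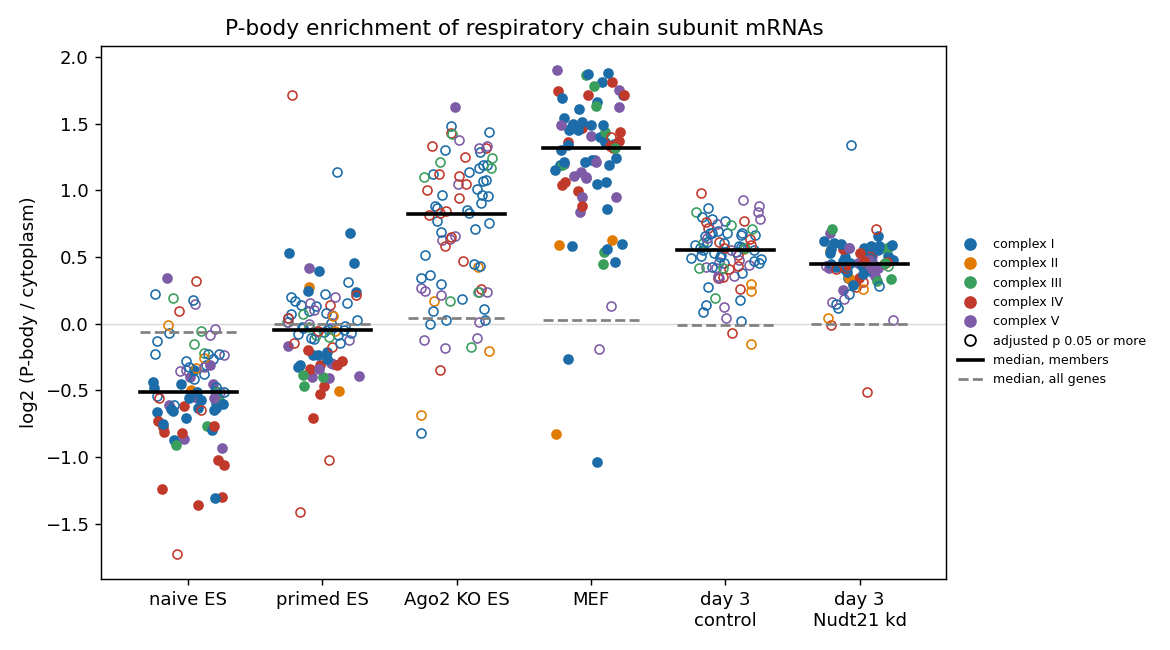
Log2 fold change of each member between P-bodies and cytoplasm (y axis) in 6 conditions (x axis), with 1 point per member, colored by complex and filled where the adjusted p was below 0.05, a black line at the member median and a dashed line at the median of all genes. Naive ES cells lie mostly below 0 (median -0.51) and MEFs mostly above 0 (median 1.32), and 1 point, Cox8c in Ago2 KO cells, lies beyond the axis and is left out.

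Primed ES cells lay between these states. Of 84 members tested, 25 were lower in P-bodies and 8 higher, against 24.2% and 26.5% of all genes, and the member median of -0.05 was close to the 0.00 of all genes. The share of members lower (25 of 84) was thus near the background. Complex IV accounted for 8 of the lower members (of 17), complex V for 7 (of 17), complex I for 6 (of 38), complex III for 3 (of 8) and complex II for 1 (of 4). Sdha was at 464 and 447 CPM in P-bodies and 610 and 663 CPM in the cytoplasm (-0.50 ± 0.05, adjusted p = 3.67e-06), and Cox7c, a small subunit of complex IV, at 87.5 and 86.4 CPM and 138 and 110 CPM (-0.53 ± 0.09, adjusted p = 0.000455). Of the 8 higher members, 6 belonged to complex I, which held 38 of the 84 members tested. The share of members higher (9.52%) was below the 26.5% of all genes.

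The higher complex I members in primed P-bodies were Ndufb5, Ndufc1, Ndufv3, Ndufa11, Ndufa12 and Ndufa2, all of them accessory subunits. Ndufb5 was at 83.7 and 85.6 CPM in primed P-bodies and 53.2 and 50.8 CPM in the cytoplasm (0.68 ± 0.08, adjusted p = 1.38e-05). Ndufc1 was at 62.4 and 54.5 CPM and 44.3 and 35.7 CPM (0.53 ± 0.11, adjusted p = 0.00184). Sdhb (0.28 ± 0.06, adjusted p = 0.00202) and Atp5pb were the other 2 members called higher, so complex II again held 1 member called in each direction. Cox8a (-0.47 ± 0.06, adjusted p = 3.18e-05) and Cox5a (-0.28) were lower in primed P-bodies too.

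**Figure D3:**
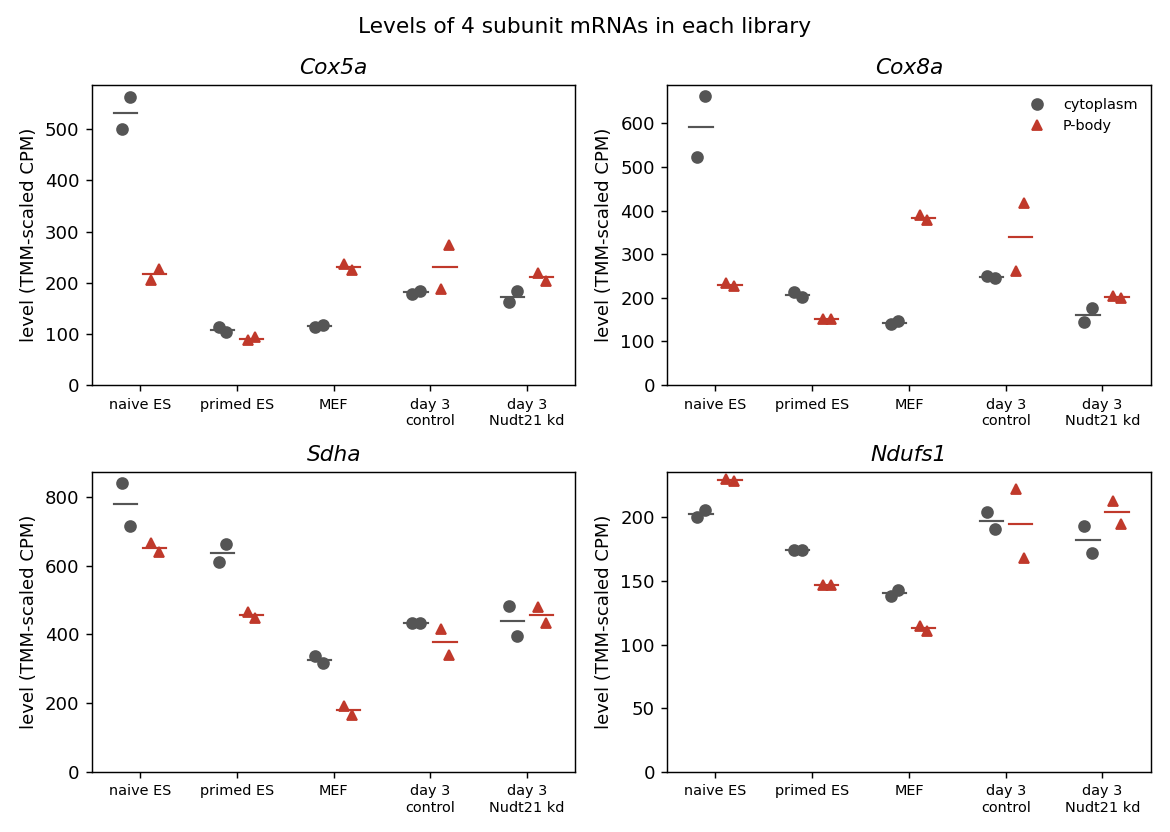
CPM of Cox5a, Cox8a, Sdha and Ndufs1 (y axis, 1 panel per gene, from 0) in the cytoplasm (grey circles) and P-bodies (red triangles) of 5 conditions (x axis), with 1 point per library and a line at the mean. Cox8a is lower in naive P-bodies (234 and 226 CPM) than in naive cytoplasm (522 and 662 CPM) and higher in MEF P-bodies (389 and 378 CPM) than in MEF cytoplasm (140 and 146 CPM), while Sdha is lower in MEF P-bodies (191 and 166 CPM) than in MEF cytoplasm (336 and 317 CPM).

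Differences between the states were tested directly as interaction terms, and these tests share the libraries of the naive cells or of the MEFs with each other and with the comparisons above. P-body enrichment was lower in naive than in primed ES cells for 44 of 84 members and higher for 0 (median difference -0.59 on the log2 scale, -0.04 over all genes), against 11.4% of all genes lower. Cox6b1 differed by -1.20 ± 0.17 (adjusted p = 0.00161) and Cox5a by -1.15 ± 0.15 (adjusted p = 0.000929). For Cox5a the P-bodies held 206 and 227 CPM in naive and 88.1 and 93.0 CPM in primed cells, and the cytoplasm 501 and 563 CPM and 114 and 103 CPM. The larger part of the difference between states in this gene was in the cytoplasm. The count of called members depended on single libraries, as did that of all genes. With 1 library left out, the median difference ran from -0.71 to -0.45.

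Between naive ES cells and MEFs, enrichment was lower in the naive cells for 77 of 83 members (median difference -2.13, -0.17 over all genes), with 19.8% of all genes lower. The naive libraries were also shallower than those of the MEFs, and the part of depth was not tested. Cox8a differed by -3.02 ± 0.18 (adjusted p = 7.48e-06) and Cox6a1 by -2.87 ± 0.14 (adjusted p = 6.6e-06). Sdha, which was lower in MEF P-bodies and not called in naive P-bodies, differed by 0.39 ± 0.15 (adjusted p = 0.0667). Of the 44 members lower in naive P-bodies, 43 were among the 76 higher in MEF P-bodies, as were 32 members not called in naive P-bodies. With 76 of 82 members higher in MEF P-bodies, a large overlap would arise for nearly any choice of members. The scaling of each fit moves these medians: with all groups of the table in 1 fit, which shifts this contrast by 0.231 for every gene, the median difference was -1.93, and with the GC content and length trend removed it was -0.77.

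At day 3 of reprogramming the members leaned to P-bodies as in MEFs, by less. In control cells 0 of 82 members were called, as were 0.646% of all genes. An unadjusted p below 0.05 was reached by 60 members, all of them higher in P-bodies, and by 3899 of all 15786 genes in either direction. DESeq2 called 49 members, a count given without its share over all genes. The median was 0.55 (-0.01 over all genes), and 0.76 and 0.28 without P-body replicate 1 or 2. Cox8a was at 261 and 418 CPM in day 3 P-bodies and 250 and 245 CPM in the cytoplasm, and Atp5g3 at 460 and 562 CPM and 405 and 421 CPM. The 2 P-body libraries differed widely from each other, and the counts of members and of all genes called both moved widely with single libraries. In Nudt21 knockdown cells, 59 of 82 members were higher in P-bodies and 0 lower (by unadjusted p below 0.05 also 0, and by DESeq2 also 0), against 9.04% of all genes higher, with a median of 0.45.

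Complex I contributed 30 of 38, complex III 7 of 8, complex V 12 of 17, complex IV 8 of 15 and complex II 2 of 4 of the members higher in Nudt21 knockdown P-bodies. Uqcrb, a small subunit of complex III that binds ubiquinone, was at 173 and 136 CPM in P-bodies and 95.3 and 91.6 CPM in the cytoplasm (0.71 ± 0.12, adjusted p = 0.00289). Atp5md, a small subunit at the dimer interface of ATP synthase, was at 114 and 98.5 CPM and 55.8 and 75.1 CPM (0.68 ± 0.15, adjusted p = 0.00955). The counts of members and of all genes called both depended on single libraries, and the member median ran from 0.38 to 0.55 with 1 left out. Enrichment did not differ between knockdown and control for any member at adjusted p below 0.05 (0 of 82, median difference -0.05, and 0.18 without day 3 control P-body replicate 2, 0.0118% of all genes called), with 0 members at an unadjusted p below 0.05 and 0 by DESeq2, although 17 were called without day 3 control P-body replicate 1.

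Against MEFs, enrichment in the day 3 control cells was lower for 33 of 82 members and higher for 1 (median difference -0.74, 0.00 over all genes), where 5.13% of all genes were lower and 9.59% higher. The member with a higher value was Sdha (0.72 ± 0.15, adjusted p = 0.0128), at 416 and 340 CPM in day 3 P-bodies and 432 and 434 CPM in day 3 cytoplasm. Uqcrh (-1.13 ± 0.26, adjusted p = 0.0176) and Ndufs4, an accessory subunit of complex I (-1.08 ± 0.19, adjusted p = 0.00617), were the lowest. Ndufs4 was at 218 and 194 CPM in MEF P-bodies and 62.0 and 72.7 CPM in MEF cytoplasm, and at 96.3 and 112 CPM and 73.5 and 75.5 CPM at day 3. This count depended strongly on single libraries, as did that of all genes. In fits with 1 library left out, the median difference ran from -1.02 to -0.58. The calls of Sdha, Uqcrh and Ndufs4 were each lost in some of these fits.

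In Ago2 KO ES cells, in which Ago2 itself was at 2.54 to 4.83 CPM, 1 of 84 members was called higher in P-bodies and 0 lower, with 6.51% of all genes called. The 1 member was Atp5s, which is not a chain subunit, at 53.2 and 41.5 CPM in P-bodies and 20.7 and 10.1 CPM in the cytoplasm (1.62 ± 0.34, adjusted p = 0.0277). At an unadjusted p below 0.05, 15 of 84 members were higher and 2 lower. That threshold was passed by 4031 of all 16808 genes in either direction, so the share of members counted in either direction was not above the background. The share of all genes that were higher at that threshold is not given here. DESeq2 called 7 members, all higher, and the share of all genes it called is not given here. The median was 0.82 (0.04 over all genes), and it ran from 0.32 without cytoplasm replicate 2 to 1.48 without cytoplasm replicate 1. Cox5a was at 1080 and 784 CPM in P-bodies and 996 and 568 CPM in the cytoplasm (0.26 ± 0.36, adjusted p = 0.721), so that the libraries of the 2 fractions overlapped. In both same-numbered pairs the P-body library had the higher summed level (46890 against 31680 CPM and 31120 against 14920 CPM), and with the replicate number as a block 47 members were called, 45 of them higher. Of the 13 subunits encoded in mitochondrial DNA, which were counted in this table, 5 were higher in P-bodies (median 0.85). The counts of members and of all genes called both moved widely with 1 library left out. This table was made with another annotation, so its values were set beside those of the other ES cells without a test.

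Other gene groups of the mitochondrion and of translation were measured alongside. In naive P-bodies, assembly factors of the chain (8 higher and 3 lower of 49, median 0.03) did not share the members' median, the tricarboxylic acid cycle had 2 higher and 5 lower of 16, other chain components such as cytochrome c 0 and 5 of 7, regulators of mitochondrial gene expression 6 and 2 of 10, and glycolysis 3 and 4 of 16. Mitochondrial ribosomal proteins (7 higher and 22 lower of 78, median -0.28) and cytosolic ribosomal proteins (0 and 42 of 85, median -0.39) moved as the members did. The same held in MEFs, where 70 of 78 mitochondrial (median 1.15) and 81 of 83 cytosolic ribosomal protein genes (1.37) were higher in P-bodies, as were 30 of 49 assembly factors (0.71), 9 of 16 tricarboxylic acid cycle genes and 6 of 7 other chain components. Glycolysis was lower for 10 of 16 genes in MEF P-bodies (median -0.51), and regulators for 6 of 11. The direction seen in the members was therefore shared with ribosomal protein genes, which are short as well.

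The polysome libraries addressed how strongly these mRNAs were bound by ribosomes, as the ratio of polysome-bound to total RNA (occupancy). In control ES cells, 63 of 83 members were higher in polysomes and 8 lower, against 18.8% and 24.1% of all genes, with a median log2 ratio of 0.42 (0.02 over all genes). Complex IV was higher in 13 of 16 members and lower in 0, complex V higher in 14 of 17, complex I in 29 of 38, complex III in 5 of 8 and complex II in 2 of 4.

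The 8 lower members were large subunits. Ndufs1 was at 41.4, 40.3 and 49.7 CPM in polysomes and 158, 152 and 141 CPM in total RNA (-1.79 ± 0.08, n = 3 per group, adjusted p = 3.15e-11). Sdha was at 128, 127 and 133 CPM in polysomes and 349, 362 and 320 CPM in total RNA (-1.41 ± 0.07, adjusted p = 3.46e-11). For both genes every total RNA library was more than 2 times as high as every polysome library. Atp5a1 (-0.83), Atp5b (-0.52), Ndufv1, which holds the NADH site of complex I (-0.52), and the core proteins Uqcrc1 (-0.50) and Uqcrc2 (-0.40) of complex III were among the others. At the upper end, Ndufa1, a small membrane subunit of complex I, was at 50.4, 56.8 and 63.1 CPM in polysomes and 35.8, 35.5 and 37.4 CPM in total RNA (0.64 ± 0.08, adjusted p = 9.11e-06). Cox7c was at 535, 546 and 585 CPM and 351, 328 and 434 CPM (0.58 ± 0.09, adjusted p = 5.51e-05). Cox5a rose by 0.42, and the c subunit genes by 0.50 (Atp5g1), 0.30 (Atp5g2) and 0.43 (Atp5g3).

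Occupancy followed coding length among members. Across the 82 members with an annotated coding sequence, Spearman's rho between the log2 ratio and coding length was -0.78, and across all 14451 coding genes it was -0.59. These points share libraries and are given as a description. The 11 members with a coding sequence over 1000 bases had a median of -0.50 (1 higher, 8 lower), and the 62 under 600 bases a median of 0.46 (57 higher, 0 lower). Ndufv3, whose annotated coding sequence is 1404 bases, was the long member called higher (0.39). With the GC content and length trend over all genes with an annotated transcript removed, the member median was 0.00.

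**Figure D4:**
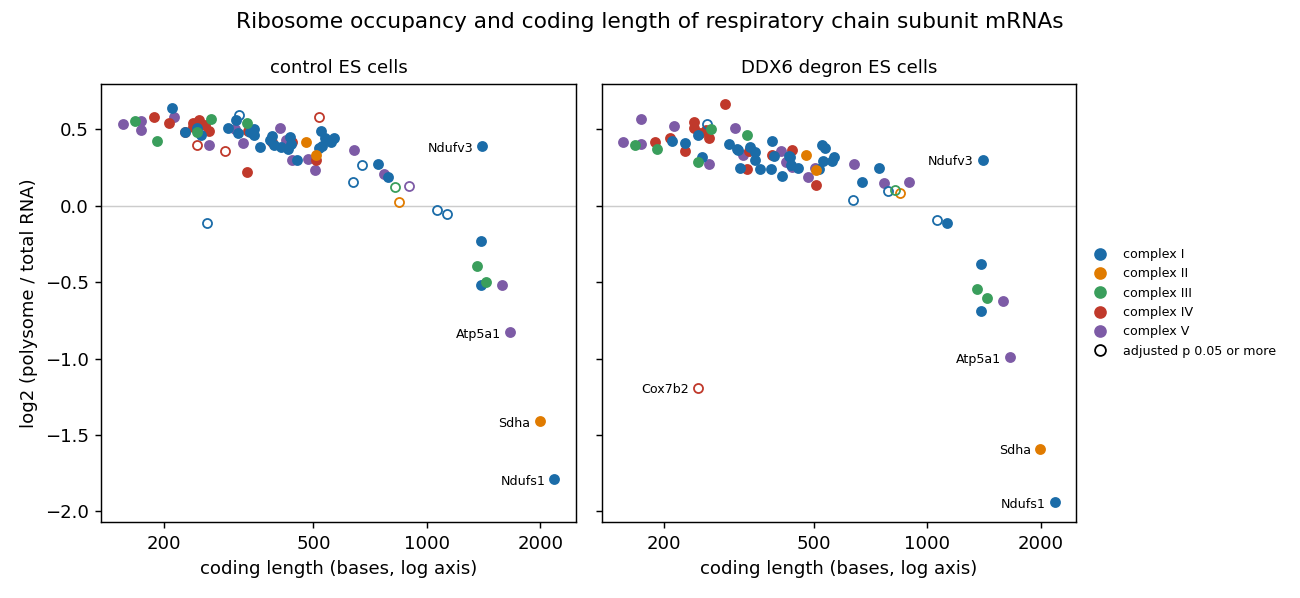
Log2 ratio of polysome-bound to total RNA for each member (y axis) against the length of its annotated coding sequence in bases (x axis, log scale), in control (left) and DDX6 degron (right) ES cells, filled where the adjusted p was below 0.05. Members under 600 bases lie mostly above 0 (medians 0.46 and 0.35) and those over 1000 bases mostly below (medians -0.50 and -0.60), with Ndufs1 lowest in both panels (-1.79 and -1.94).

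The length of members was also related to P-body enrichment, with a different sign between states. Spearman's rho between enrichment and coding length among members was 0.31 in naive ES cells (82 members), 0.059 in primed ES cells, -0.72 in Ago2 KO ES cells, -0.43 in MEFs, -0.61 in day 3 control cells and -0.39 in Nudt21 knockdown cells, and over all coding genes 0.079, -0.13, -0.32, -0.45, -0.38 and -0.45. In MEFs the members over 1000 bases had a median of 0.46 and those under 600 bases 1.40, and in naive ES cells -0.23 and -0.57.

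After dTAG-13, occupancy of the members looked much like that of the control. Of 82 members tested, 65 were higher in polysomes and 9 lower, against 24% and 26.8% of all genes, with a median of 0.31 (0.02 over all genes). Ndufs1 was at 40.2, 38.6 and 37.6 CPM in polysomes and 147, 145 and 155 CPM in total RNA (-1.94 ± 0.05, adjusted p = 4.13e-19), and Sdha at 132, 108 and 116 CPM and 364, 348 and 353 CPM (-1.59 ± 0.06, adjusted p = 1.22e-16). Atp5mpl, a small subunit of ATP synthase, was at 138, 136 and 137 CPM in polysomes and 93.0, 98.2 and 87.1 CPM in total RNA (0.57 ± 0.05, adjusted p = 8.05e-10), and Cox7b at 299, 280 and 288 CPM and 200, 204 and 190 CPM (0.55 ± 0.04, adjusted p = 4.29e-10). In none of these 4 genes did polysome and total RNA libraries overlap. With the GC content and length trend removed the median was -0.05.

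The change of occupancy between degron and control cells was tested as an interaction. It passed the threshold for 0 of 83 members and for 0% of all genes with edgeR, with 3 members (all lower) and 844 genes at an unadjusted p below 0.05, and DESeq2 also called 0 members. The median change was -0.10 (-0.01 over all genes), and 74 of 83 members were below 0. Ndufs1 changed by -0.15 ± 0.10 (adjusted p = 0.884), Sdha by -0.18 ± 0.09 (adjusted p = 0.879) and Cox5a by -0.06 ± 0.07 (adjusted p = 0.932). Total RNA of the members also passed the threshold for 0 of 82 members, where 3.31% of all genes did (median 0.10, 0.01 over all genes). An unadjusted p below 0.05 was reached by 13 members, all higher, and by 2981 of all 15380 genes in either direction. Counted in either direction, the share of members at that threshold was thus not above the background. The share of all genes that were higher at that threshold is not given here, and DESeq2 called 1 member. Control total replicate 3 weighed on the count of called members, since 51 were called without it. The count over all genes moved as well, from 6 to 3373 with 1 library left out. Summed levels lay between 15590 and 18260 CPM in all 12 libraries.

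By contrast with the members, tricarboxylic acid cycle genes (0 higher and 9 lower of 16, median -0.26) and glycolysis genes (0 and 13 of 16, median -0.79) had low occupancy in control ES cells. Assembly factors (31 higher and 4 lower of 49), other chain components (5 and 1 of 7), mitochondrial ribosomal proteins (55 and 3 of 78) and cytosolic ribosomal proteins (40 and 0 of 85) were more often higher than lower, and regulators were divided (4 and 5 of 10). Occupancy fell with coding length over all coding genes (Spearman's rho -0.59), and the part of length in these group differences was not tested.

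The cytoplasm libraries alone gave the level of the members in each state, with the naive cytoplasm libraries being those used above. In naive over primed ES cells, 52 of 83 members were higher and 2 lower, against 22.1% and 21.6% of all genes, with a median log2 fold change of 0.66 (0.00 over all genes). Fewer cells with high levels and lower levels in every cell cannot be told apart in such bulk libraries. Complex IV was higher in 11 of 16 members (median 0.89), complex III in 6 of 8 (0.77), complex I in 23 of 38 (0.64), complex V in 10 of 17 (0.59) and complex II in 2 of 4 (0.39).

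Cox7a1, the heart and muscle form of a complex IV subunit, was at 30.2 and 40.9 CPM in naive and 5.68 and 5.91 CPM in primed cytoplasm (2.60 ± 0.23, adjusted p = 0.000817), and Cox5a at 501 and 563 CPM and 114 and 103 CPM (2.28 ± 0.13, adjusted p = 0.000249). Both ranges were far apart. The c subunit genes moved unequally, by 1.87 ± 0.15 for Atp5g1 (364 and 458 CPM in naive, 113 and 110 CPM in primed cytoplasm, adjusted p = 0.000567), by 0.68 for Atp5g3 and by 0.37 for Atp5g2 (adjusted p = 0.0542), although their products share the mature sequence. Per kilobase of transcript, naive cytoplasm held 87.2 ± 14.1 CPM of Atp5g1, 191 ± 11.5 CPM of Atp5g2 and 685 ± 17.8 CPM of Atp5g3 (SD, n = 2). Primed cytoplasm held 23.6 ± 0.582, 147 ± 9.97 and 425 ± 33.4 CPM, so Atp5g3 was the highest of the 3 in both. The low value of Atp5g1 rests on an annotated transcript of 4715 bases, against 731 for Atp5g2 and 714 for Atp5g3. In CPM, Atp5g3 was again highest in naive cytoplasm (480 and 498 CPM), but Atp5g1 lay above Atp5g2 (134 and 146 CPM).

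Members lower in naive cytoplasm were Atp5e, the ε subunit of ATP synthase (-0.51 ± 0.16, adjusted p = 0.0411, a call lost with DESeq2 and without either primed library), and Cox8c, a testis form at 0.0785 and 0.154 CPM in naive and 0.741 and 1.37 CPM in primed cytoplasm. The counts of members and of all genes called both moved widely with single libraries, and the member median ran from 0.54 to 0.76 with 1 left out. Cox5a and Cox7a1 stayed called without either primed cytoplasm library. With the GC content and length trend removed the median was 0.37. Assembly factors were higher for 7 and lower for 4 of 49 genes, the tricarboxylic acid cycle for 6 and 0 of 16, and mitochondrial ribosomal proteins for 36 and 0 of 78.

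From MEFs to day 3 of reprogramming, 54 of 82 members rose in the cytoplasm and 9 fell, against 35.5% and 33.7% of all genes, with a median of 0.39 (0.04 over all genes). Complex I rose in 26 of 38 members, complex II in 4 of 4, complex III in 5 of 8, complex IV in 8 of 15 and complex V in 11 of 17. Cox6b2, a testis form of a complex IV subunit, was at 65.1 and 69.9 CPM at day 3 and 7.54 and 6.03 CPM in MEFs (3.37 ± 0.11, adjusted p = 4.72e-13), whereas its common form Cox6b1 was at 216 and 216 CPM and 191 and 225 CPM (0.11 ± 0.07, adjusted p = 0.176). Ndufb8, a membrane subunit of complex I, rose from 141 and 151 CPM to 307 and 325 CPM (1.17 ± 0.06, adjusted p = 1.11e-10). The groups did not overlap for Cox6b2 or Ndufb8.

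The members that fell in the cytoplasm were Ndufa4l2, Cox4i2, Atp5md, Ndufc1, Ndufv3, Ndufa3, Uqcrq, Uqcrb and Cox7b. Ndufa4l2 fell from 16.3 and 13.8 CPM in MEFs to 0.410 and 1.03 CPM at day 3 (-4.32 ± 0.26, adjusted p = 5.54e-10), and Ndufa4, its common relative, was at 153 and 201 CPM and 179 and 177 CPM (0.07 ± 0.09, adjusted p = 0.546). Cox4i2, the lung and hypoxia form of Cox4i1, was low throughout, at 0.975 and 1.18 CPM in MEFs and 0.298 and 0.421 CPM at day 3 (-1.52 ± 0.55, adjusted p = 0.023), while Cox4i1 rose by 0.60. Atp5md fell from 89.7 and 102 CPM to 60.4 and 56.3 CPM (-0.66 ± 0.08, adjusted p = 2.25e-06), and Ndufc1 by 0.37 on the log2 scale (adjusted p = 0.00178). Among c subunit genes, Atp5g2 rose by 0.94 and Atp5g3 by 0.67, and Atp5g1 was at 0.13 (adjusted p = 0.0838). Glycolysis genes fell for 12 and rose for 2 of 16.

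**Figure D5:**
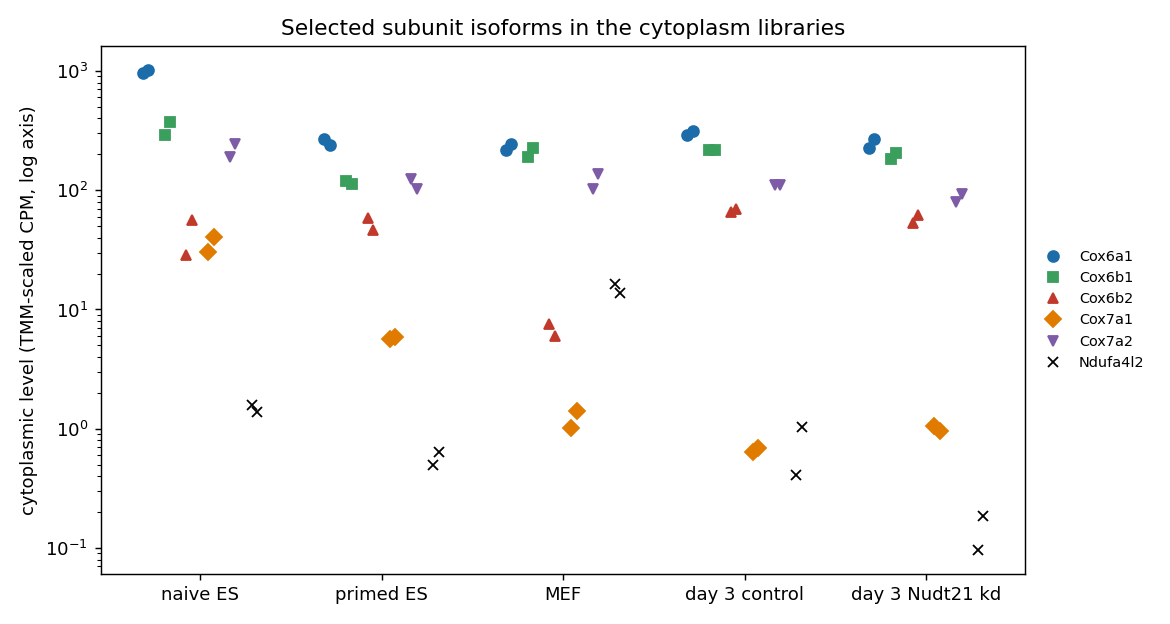
CPM in the cytoplasm (y axis, log scale) of 6 members with tissue-specific or hypoxia-linked relatives in 5 conditions (x axis), with 1 point per library. Cox6b2 lies at 7.54 and 6.03 CPM in MEFs and 65.1 and 69.9 CPM at day 3, Ndufa4l2 at 16.3 and 13.8 CPM in MEFs and 0.410 and 1.03 CPM at day 3, and Cox7a1 at 30.2 and 40.9 CPM in naive ES cells and at most 5.91 CPM elsewhere.

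Within paralogue pairs, the tissue form lay below the common form per kilobase in the mean of each cytoplasm group outside the Ago2 KO. It came closest to the common form for Cox6b2 and Cox7a1. In Ago2 KO cytoplasm Cox7a1 lay above Cox7a2, at 624 ± 741 against 344 ± 217 CPM per kilobase (SD, n = 2). The 2 libraries there held 451 and 39.5 CPM of Cox7a1 and 328 and 126 CPM of Cox7a2. Per kilobase, primed cytoplasm held 89.5 ± 14.7 CPM of Cox6b2 and 188 ± 8.43 CPM of Cox6b1 (SD, n = 2), and MEF cytoplasm 11.6 ± 1.82 and 336 ± 38.7 CPM. Naive cytoplasm held 90.4 ± 19.2 CPM per kilobase of Cox7a1 and 331 ± 58.3 CPM of Cox7a2, and primed cytoplasm 14.8 ± 0.417 and 172 ± 21.2 CPM. Cox6a2, the muscle form, stayed at or under 3.23 CPM in every P-body and cytoplasm library outside the Ago2 KO, Cox7b2 at or under 0.518 CPM and Cox8c at or under 1.37 CPM, values at which the fold changes rest on few reads. Cox7a2l, which takes part in supercomplex formation, did not differ between naive and primed cytoplasm beyond its spread (-0.01 ± 0.19, adjusted p = 0.964).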

How the data were processed

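P-body, cytoplasm, polysome and total RNA of mouse cells were sequenced. The authors deposited gene counts: HISAT2 and featureCounts are named in the submitters' processing notes, and the methods describe alignment to mm10 with refGene genes for the P-body libraries and salmon estimates for the polysome libraries. How the Ago2 KO table was counted is not given in the methods, and its name points to salmon. The deposited tables held expected counts, which need not be whole and were rounded, and nothing was normalized before deposit. The other deposited files hold the authors' own DESeq2 comparisons and were not used. Samples were grouped by their titles. The study describes its replicates as biological.

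Genes with at least 10 reads over the libraries of a fit were tested with edgeR (v4.0.16, R v4.3.3) quasi-likelihood fits after TMM scaling, on the compared groups alone, with Benjamini-Hochberg adjustment over all genes and a threshold of 0.05. Differences of enrichment or occupancy were interaction terms. DESeq2 (v1.42.0), DESeq2 size factors, no filter, 1 fit per table, a replicate block, omission of ribosomal RNA genes (Ago2 KO), removal of a GC content and transcript length trend (mgcv v1.9.3, GENCODE M21 transcripts) and leaving out each library were alternatives. The fits were tested on simulated data. The members and gene lists were chosen with earlier results of these data known, and no set test was made. Genes named were paralogue pairs, c subunit and Sdh genes, Cox5a, the 2 called members of largest change in each direction with a mean of at least 10 CPM, and others as examples of their complex, chosen after their values were seen. The value of 1 member is not reported here.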

Additional observations from a re-analysis of the deposited data

Results flagged for a closer look

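Enrichment in P-bodies differed between cell states by a test of the difference itself for members of the respiratory chain in 3 contrasts. Between naive and primed ES cells, 44 members differed (25.3% of all genes did), among them Cox6b1 (-1.20 on the log2 scale, edgeR interaction term) and Cox5a (-1.15). Between naive ES cells and MEFs, 77 members differed (41.3% of all genes), Cox8a (-3.02) and Cox6a1 (-2.87) by most. Between day 3 control cells and MEFs, 34 members differed (14.7% of all genes), with Sdha (0.72) in one direction and Uqcrh (-1.13) and Ndufs4 (-1.08) in the other. That count depended strongly on single libraries, and each of these 3 gene calls was lost without some single library. The contrasts with primed ES cells and with MEFs share the naive libraries, and both contrasts with MEFs share the MEF libraries, so they are not independent of each other.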

How the results depend on the processing

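With the GC content and length trend removed, the median occupancy in DDX6 degron cells was -0.05 in place of 0.31, and in control cells 0.00 in place of 0.42. Medians near 0 changed sign: the primed P-body median (-0.05) was 0.02 without primed cytoplasm replicate 1, and the knockdown minus control median (-0.05) was 0.18 without day 3 control P-body replicate 2, 0.01 without knockdown cytoplasm replicate 2 and 0.04 with the trend removed. The other member medians kept their direction in the alternatives run. Of the counts of called members, 128 values under an alternative were within 1.5 times the value reported and 46 were not. A single fit per table gave 12 called members in primed ES cells, 63 in day 3 control cells, 28 for naive minus primed, 53 for day 3 minus MEF and 3 for total RNA of degron against control. DESeq2 gave 7 in Ago2 KO cells, 49 in day 3 control cells, 53 for day 3 minus MEF and 1 for total RNA. Without a filter the counts were 33 in Ago2 KO cells, 41 in day 3 control cells, 60 for day 3 minus MEF and 1 for total RNA. Without ribosomal RNA genes, 0 were called in Ago2 KO cells. The shares of all genes called are not given beside these counts or those with a replicate block. A changed count thus need not be particular to the members. The cause was not tested.

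Leaving out 1 library at a time gave ranges of 3 to 73 (naive P-body), 25 to 37 (primed), 0 to 56 (Ago2 KO), 75 to 80 (MEF), 0 to 76 (day 3 control), 8 to 69 (Nudt21 knockdown), 14 to 66 (naive minus primed), 70 to 78 (naive minus MEF), 0 to 73 (day 3 minus MEF), 0 to 17 (knockdown minus control), 65 to 75 and 71 to 74 (occupancy in control and degron cells), 0 to 1 (its change), 0 to 51 (total RNA), 10 to 70 (cytoplasm, naive against primed) and 57 to 65 (cytoplasm, day 3 against MEF).

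The cytoplasm was a portion of the fraction that was sorted, but the labels do not say that equal numbers mark 1 lysate, and the numbers were not taken to pair the samples, with 2 pairs in most comparisons. Correlations of same-numbered deviations ran from -0.4 to 0.6 over the comparisons. With a replicate block, 47 members were called in Ago2 KO cells (correlation 0.6) and 10 in day 3 control cells, 45 in naive, 33 in primed, 79 in MEF and 65 in knockdown cells, 38, 78, 51 and 0 for the 4 differences of enrichment in the order above, 72, 74 and 0 for occupancy and its change, 0 for total RNA, and 55 and 63 for the cytoplasm comparisons. Depth limits Cox4i2, Cox6a2, Cox7b2 and Cox8c, which rest on few reads.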
